A study of Homo sapiens with 14 samples.

Results

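RPMI8226-only peaks were accessible regions that the authors called in all 5 Omni-ATAC libraries of the myeloma line RPMI8226 and that overlapped no reference peak of the myeloma line MM.1S by 1 bp or more. Of 49722 RPMI8226 peaks with this support on chromosomes 1 to 22, 12742 were RPMI8226-only (25.6%, 95% Wilson interval 25.2 to 26.0%). The other 36980 overlapped an MM.1S peak and served as the comparison, and are called shared peaks here. The 12742 peaks were 43.6% of the 29200 RPMI8226-only peaks of any support, which started at 3 libraries. The peaks were chosen by measured accessibility, namely the support of 5 and the absence of an MM.1S peak, so neither is a finding.

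Omni-ATAC reads open chromatin from the places where a transposase can insert adapters. RPMI8226 contributed 1 library from monoculture (MONO), 2 from the upper transwell over the bone marrow stromal line HS5 (TSW) and 2 from the lower chamber shared with HS5 (CO), and MM.1S contributed 3 libraries of each kind. By the study's methods, MM cells were sorted as CD90-CD38+ cells. A support of 5 needs the only MONO library, so every RPMI8226-only peak described here was called in all 3 culture conditions. Each group was 1 established line. A region missing from the MM.1S list was called in fewer than 3 of 9 MM.1S libraries, which does not mean that it was closed. The files hold no value for a single library, and the read totals that the study lists for each library were not used here. Depth, copy number and cell line cannot be told apart from these lists.

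Open chromatin falls into promoters, at the transcription start sites of genes, and distal elements, which include enhancers and sites of the insulator protein CTCF. Many promoters are open in most cell types, whereas enhancers differ between cell types and carry the motifs of the transcription factors active there. Myeloma cells are malignant plasma cells, the antibody-secreting end stage of the B lineage. Here a peak within 2500 bp of an annotated start site was a promoter peak, every other peak was distal, and the nearest gene was the protein-coding gene with the closest start site.

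To show the AP-1 word in its setting, distal RPMI8226-only peaks with several copies were taken. Such peaks are few, and the difference described below was in peaks with a single copy. The word is TGACTCA or its reverse complement, which dimers of FOS and JUN proteins bind. The central bases of 2 such peaks are given in hg38, plus strand, with AP-1 words in capitals. The MDGA2 peak (chr14:48563524-48563723) was intergenic and is named after its nearest gene, MDGA2, although it lay at -888018 bp (upstream) from that start site. The SLC35E4 peak (chr22:30649554-30649753) lay in an intron 13130 bp from SLC35E4.
MDGA2 peak: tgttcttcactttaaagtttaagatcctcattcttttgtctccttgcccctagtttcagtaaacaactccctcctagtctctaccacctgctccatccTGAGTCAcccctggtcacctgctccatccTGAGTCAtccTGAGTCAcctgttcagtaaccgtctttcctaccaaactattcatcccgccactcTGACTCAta
SLC35E4 peak: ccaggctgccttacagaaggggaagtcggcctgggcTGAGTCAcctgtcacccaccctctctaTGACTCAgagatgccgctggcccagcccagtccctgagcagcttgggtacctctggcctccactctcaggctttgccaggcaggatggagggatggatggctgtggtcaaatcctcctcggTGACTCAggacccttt

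The MDGA2 peak held 4 AP-1 words and the SLC35E4 peak held 3. They differed in how common their sequence was: 34.1% of the 16-base words in the MDGA2 peak occurred at least 20 times in the genome, against 2.70% in the SLC35E4 peak.

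Peaks of 3 genes that the results name are given next, to show the sequence of both kinds of gene described below. PLA2G2E, a secreted phospholipase gene (chr1:19921622-19921821), and CD8B, a chain of the T cell coreceptor CD8 (chr2:86861925-86862120), had a promoter peak in RPMI8226 and none in MM.1S. CAMTA1, a calmodulin-binding transcription activator (chr1:7673051-7673250), was among the genes with the most RPMI8226-only peaks, and the closest of these is given. None of these windows holds an AP-1 word, and all letters are in lower case.
PLA2G2E peak: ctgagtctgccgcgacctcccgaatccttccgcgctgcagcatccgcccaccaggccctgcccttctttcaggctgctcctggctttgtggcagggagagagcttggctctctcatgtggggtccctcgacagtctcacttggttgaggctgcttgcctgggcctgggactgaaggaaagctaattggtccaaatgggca
CD8B peak: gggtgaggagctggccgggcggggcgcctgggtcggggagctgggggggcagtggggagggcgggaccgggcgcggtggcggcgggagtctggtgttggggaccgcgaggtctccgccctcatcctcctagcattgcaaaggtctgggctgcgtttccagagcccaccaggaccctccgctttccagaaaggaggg
CAMTA1 peak: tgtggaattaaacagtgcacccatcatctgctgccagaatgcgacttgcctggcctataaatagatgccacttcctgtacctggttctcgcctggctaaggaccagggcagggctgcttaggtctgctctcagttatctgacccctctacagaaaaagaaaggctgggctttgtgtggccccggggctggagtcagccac

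A further set recurred from peak to peak. These are 4 words of 20 bases, each found in at least 10 peaks and mostly in RPMI8226-only ones, and the capitals in word 2 mark the 6-base words ATTATA and, on the other strand, GATATA.
word 1: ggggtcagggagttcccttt
word 2: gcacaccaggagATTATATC
word 3: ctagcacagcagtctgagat
word 4: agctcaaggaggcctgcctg

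Promoter peaks at markers of plasma cells and of stroma were looked up first. Of 10 plasma cell markers, 9 had a promoter peak called in all 5 RPMI8226 libraries, all but SLAMF7, a surface receptor of plasma cells. All 10 had an MM.1S promoter peak. Over all protein-coding genes, 12037 of 18430 (65.3%) had a promoter peak called in all 5 RPMI8226 libraries. The count of 9 of 10 is a description, and plasma cell identity was not tested. Of 20 stromal markers, 6 had a promoter peak called in all 5 RPMI8226 libraries, and 11 had one in the MM.1S list. The counts rest on unlike thresholds and do not compare the lines. COL1A2, COL3A1, DCN, LUM and THY1, the gene of CD90, were among the 14 without a promoter peak called in all 5 RPMI8226 libraries. No marker of either list had a promoter open in RPMI8226 alone. By nearest gene, 10 of the 33 peaks at stromal markers and 9 of the 74 at plasma cell markers were RPMI8226-only. The part of residual HS5 cells in the results was not tested.

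The distance from an RPMI8226-only peak to the nearest MM.1S peak, which the definition used, had a median of 10616 bp (quartiles 3790 and 26958 bp). Around the threshold, 13 RPMI8226-only peaks had an MM.1S peak within 50 bp and 11 shared peaks overlapped one by 50 bp or less. An MM.1S peak lay within 1000 bp of 1009 RPMI8226-only peaks (7.92%), and none lay within 100000 bp of 595 (4.67%). Among the shared peaks, 74.9% overlapped an MM.1S peak called in all 9 libraries.

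RPMI8226-only peaks lay mostly away from genes' start sites. Promoter peaks were 2930 of the 12742 (95% interval 22.3 to 23.7%), against 48.3% of shared peaks, an odds ratio of 0.320 (95% interval 0.305 to 0.335), and the share was lower on 22 of 22 chromosomes. Introns outside promoters held 42.4% of RPMI8226-only and 28.1% of shared peaks (odds ratio 1.89, 1.81 to 1.97). Intergenic sequence held 32.1% and 21.4% (odds ratio 1.74, 1.66 to 1.82). Exons outside promoters held 2.51% and 2.24%, a difference that did not pass the test (odds ratio 1.13, 0.988 to 1.28, Fisher's exact test, two-sided, p = 0.0753). These tests count peaks, which are not replicates, and neighbouring peaks are not independent, so the intervals cover counting error only.

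The median distance to the start site of a protein-coding gene was 36389 bp for RPMI8226-only peaks and 11513 bp for shared peaks. Within 1 kb of a start site were 4.79% of RPMI8226-only peaks and 30.6% of shared peaks. Beyond 50 kb were 43.0% and 24.3% (odds ratio 2.34, 2.24 to 2.44). Between 100 and 500 kb the shares were 22.2% and 11.6%, and beyond 500 kb they were 4.84% and 2.47%.

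**Figure D1:**
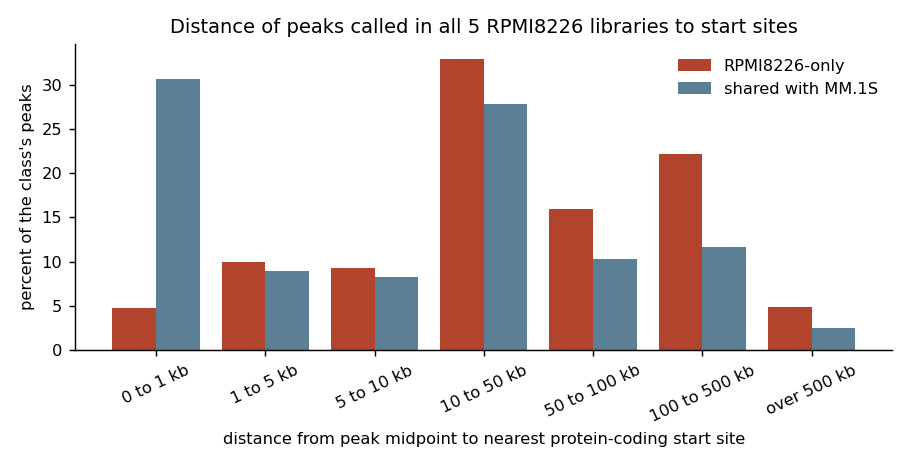
Share of peaks (%) in bins of distance to the nearest protein-coding start site, for RPMI8226-only and shared peaks called in all 5 libraries. RPMI8226-only peaks hold 4.79% within 1 kb and shared peaks 30.6%, and RPMI8226-only peaks hold the larger share in every bin from 1 kb outwards.

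RPMI8226-only peaks also had fewer CpG-rich sequences, the kind found at the promoters of widely expressed genes. CpG-rich peaks (GC content of at least 50% and an observed-to-expected CpG ratio of at least 0.6) were 2.64% of RPMI8226-only and 29.4% of shared peaks (odds ratio 0.0652, 0.0583 to 0.0728). Among promoter peaks alone the shares were 7.92% and 57.4% (odds ratio 0.0638, 0.0556 to 0.0732), and among distal peaks 1.06% and 3.15% (odds ratio 0.329, 0.267 to 0.406). The kind of gene at the promoter differed as well. A start site of any transcript of a protein-coding gene, coding or not, was present in 58.3% of RPMI8226-only promoter peaks and 81.7% of shared ones. A long noncoding RNA's without such a site was present in 25.9% and 12.6%. Start sites of protein-coding transcripts were fewer. They were within 2500 bp of 1215 of all 12742 RPMI8226-only peaks (9.54%) and of 35.4% of all shared peaks. The median width was 376 bp (quartiles 280 and 513 bp) for RPMI8226-only peaks and 485 bp for shared peaks, and 164 RPMI8226-only peaks (1.29%) were 1000 bp or wider. Among distal peaks the medians were 371.5 and 406 bp.

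The widest RPMI8226-only peak had 2400 bp on chromosome 15, 178498 bp from its nearest gene, POTEB3. It was followed by 1768 bp on chromosome 3, 77087 bp from TFRC, the transferrin receptor gene. Both of these were promoter peaks through other annotated start sites. Next were 1689 bp on chromosome 16, 80898 bp from TP53TG3, and 1654 bp on chromosome 2, 31897 bp from ZFP36L2, which encodes an RNA-binding protein. The fifth had 1588 bp and lay in an exon on chromosome 9, 7032 bp from CACFD1.

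The chromosomes differed in how many of their peaks were RPMI8226-only. Chromosome 13 had the highest share, 378 of 1076 (35.1%, 32.3 to 38.0%), followed by chromosomes 18 (31.9%), 5 (30.6%) and 3 (30.3%). Chromosomes 17 (18.0%) and 19 (18.2%) had the lowest. The intervals of chromosomes 13 and 18 overlapped, as did those of 17 and 19. On chromosome 13 the share was 46.1% among distal peaks and 13.7% among promoter peaks. The order changed among distal peaks alone, where chromosomes 14 (39.7%) and 6 (38.3%) came next. Chromosome 18 had 37.0% of distal peaks and the highest share of promoter peaks, 21.8%. The lowest distal shares were on chromosomes 19 (25.8%), 21 (26.8%) and 17 (27.7%).

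**Figure D2:**
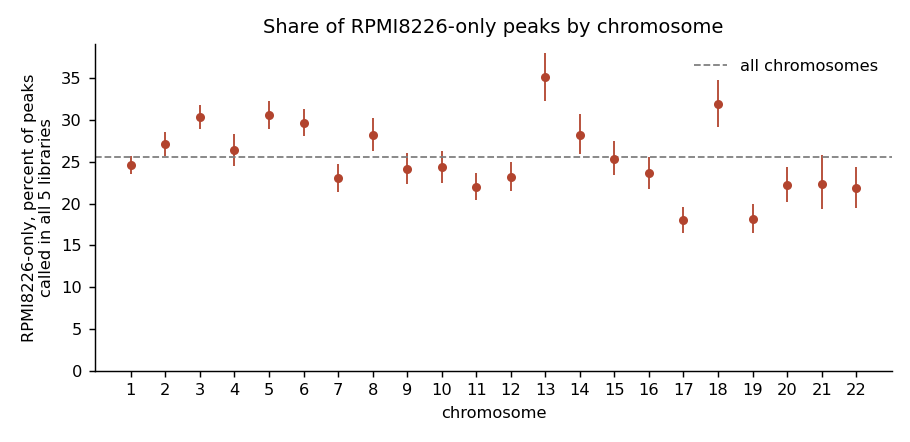
Share (%) of the peaks of each chromosome called in all 5 RPMI8226 libraries that are RPMI8226-only, with 95% Wilson intervals as bars. Chromosome 13 is highest at 35.1% and chromosome 17 lowest at 18.0%.

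RPMI8226-only peaks were spread over many genes. By nearest start site, 6002 of 18430 protein-coding genes (32.6%) had at least 1, 534 had at least 5 and 76 had at least 10. In windows of 500 kb, 905 windows with 5 or more held 6214 of the peaks (48.8%).

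The 15 genes with the most RPMI8226-only peaks were led by TBL1XR1, a corepressor subunit gene, with 42 of its 74 peaks (56.8%, against 25.6% of all peaks called in all 5 libraries). These 42 lay between 3415 bp and over 1 Mb from its start site, 23 in introns and 15 between genes. An AP-1 word was present in 7 of the 42, near the share in RPMI8226-only peaks in general. That share was 19.6% of distal and 17.2% of promoter peaks, in the central 200 bp. CAMTA1 had 29 of 43, of which 25 were intronic. ID2, an inhibitor of basic helix-loop-helix factors, had 24 of 50, all upstream of its start site and none closer than 75830 bp. TRPS1, a GATA-type zinc finger repressor, had 22 of 30, with 18 between genes. STIM2, an endoplasmic reticulum calcium sensor, had 17 of 26, all intergenic.

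Several of these genes act in signalling or differentiation. MAF, the transcription factor of the t(14;16) translocation of myeloma, had 14 of 32, and 7 of the 14 held an AP-1 word. SEMA3C, a secreted semaphorin, had 14 of 19, of which 9 held an AP-1 word. This was the most of any gene among distal peaks, beside 19.6% of all RPMI8226-only distal peaks. PIK3R1, the regulatory subunit of PI3 kinase, had 14 of 25, and CD180, a B cell surface receptor, had 15 of 20. WNT5A, a WNT ligand, had 14 of 20, ID4 15 of 22, EFNA5, an ephrin, 14 of 29, and SEMA6A 14 of 28. No gene of the 15 had a promoter open in RPMI8226 alone. TBL1XR1, CAMTA1, ID2, MAF and SEMA3C had promoter peaks in both lines. CD180, ID4 and SLC10A2 had no promoter peak called in all 5 RPMI8226 libraries and none in the MM.1S list.

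The genes were also ranked by share. Among 561 genes with 12 peaks or more, the median gene had 34.8% RPMI8226-only peaks. ZNF716 had 14 of 14, FOXL1, a forkhead factor, 13 of 14, DOK6, an adaptor of receptor kinases, 12 of 13, and TCF7L2, the transcription factor at the end of the WNT pathway, 11 of 13. SLC10A2, the ileal bile acid transporter, had 15 of 18, CDRT15L2 11 of 13, SMOC2 and STRIT1 13 of 16 each, LRFN2 10 of 13, and IRX4, a homeobox factor, 13 of 17. ZNF716 and IRX4 were the genes of these 10 with a promoter peak in RPMI8226 and none in MM.1S. The 14 peaks of ZNF716 lay at chr7:57300950-60517944, and 12 of them were intergenic. They fell in a run of 17 consecutive RPMI8226-only peaks at chr7:56447977-62667491, which held 0 MM.1S peaks. The high share is thus that of a wide region and not of ZNF716 alone.

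In the densest windows, 19 of 34 peaks at chr2:8000001-8500000 were RPMI8226-only, all with ID2 as nearest gene. At chr3:190000001-190500000 there were 18 of 30, of which 10 had P3H2 and 5 had CLDN1, a tight junction gene, as nearest gene. The window chr16:86500001-87000000 held 17 of 19, with FOXL1 nearest to 13, and chr3:155000001-155500000 held 17 of 26, with STRIT1 nearest to 13 and MME, the gene of CD10, to 4. The window chr1:200000001-200500000 held 16 of 33, split between NR5A2, a nuclear receptor, with 9, and ZNF281 with 7.

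A smaller set of genes was open at the promoter in RPMI8226 alone, that is, had an RPMI8226-only peak at a promoter and no MM.1S peak at any of its promoters. They were 324 of 18430 protein-coding genes (1.76%), on 22 chromosomes, and rested on 319 different widest peaks with a median width of 450 bp. Of these peaks 84 (26.3%) were CpG-rich. Another 841 genes had an RPMI8226-only promoter peak and an MM.1S peak elsewhere at a promoter. Since the definition of these genes used the peak calls, their number is a description.

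The widest such promoter peaks were at PLA2G2E (1473 bp), ZNF566 (1440 bp), CD8B (1362 bp), ZNF331 (1255 bp) and BMP7 (1145 bp), which encodes a bone morphogenetic protein. The BMP7 peak spanned its start site at chr20:57265683-57266827, and 7 of the 10 peaks nearest to BMP7 were RPMI8226-only. Next were ZNF160 (1114 bp), CERS4, a ceramide synthase gene (1113 bp), WT1, a zinc finger factor of kidney development and leukaemia (1112 bp), MKRN3, an imprinted gene (1102 bp), and METTL7B (1084 bp). CDKN2B, the gene of the cell cycle inhibitor p15, had a peak of 1069 bp at chr9:22008665-22009733, 20371 bp from the nearest MM.1S peak. TRIM58 (1043 bp), ATP10A (1032 bp), ZNF432 (1023 bp) and MYBPH (1020 bp) completed the 15. The distance to an MM.1S peak was 2711 bp for PLA2G2E and 2549 bp for MYBPH, but 104901 bp for ZNF331 and 156037 bp for ZNF160.

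Zinc finger genes of the ZNF family, which mostly encode KRAB-type repressors, were the largest group. Of 497 ZNF genes, 38 (7.65%) were open at the promoter in RPMI8226 alone, against 1.76% of all protein-coding genes. Chromosome 19, where these genes lie in clusters, held 33 of the 38, which was 13.4% of its 246 ZNF genes. The share was 1.99% of the 251 ZNF genes on other chromosomes and 3.33% of the 1142 other genes of chromosome 19. The 38 genes rested on 36 different peaks, of which 26 (72.2%) were CpG-rich and none had many copies in the genome, with a median width of 614 bp. The median distance from these peaks to an MM.1S peak was 42226 bp.

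Genes of other blood lineages were also present. Of 37 myeloid genes 6 were open at the promoter in RPMI8226 alone (16.2%): NLRP3, an inflammasome sensor (peak of 752 bp), CEBPA, a myeloid transcription factor (689 bp), S100A8 (433 bp), FCGR1A, an Fc receptor (418 bp), the scavenger receptor gene CD36 (415 bp), and ITGAX, the gene of CD11c (346 bp). CD36 had 5 RPMI8226-only peaks of 7, and IL1B, a cytokine gene, had 4 of 4 without a promoter peak among them. Of 64 chemokine and receptor genes 7 (10.9%) were open in this way, among them CCR6 (724 bp) and CXCR2 (549 bp). The T and NK cell list had 3 of 38, CD8B, CTLA4 (428 bp) and CD4 (326 bp), and the B cell list had CXCR5 (446 bp) and FCER2, the gene of CD23 (333 bp), of 29. Any annotated start site of a gene counted. The CD36 peak began at chr7:80638255 and the CTLA4 peak at chr2:203869614, but the most upstream start sites were at 80369575 and 203853888. With a promoter window of 1000 bp, the T and NK cell list had 1 gene. The myeloid, chemokine and B cell lists then had 6, 7 and 2. Where genes with an MM.1S peak within 10000 bp of a start site were left out, 176 genes were counted in all, with 34 ZNF, 3 myeloid, 2 chemokine, 0 T and NK cell and 0 B cell genes.

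Other lists had none. No gene was open at the promoter in RPMI8226 alone among 18 plasma cell genes, 15 AP-1 subunits, 28 genes of the NF-kB pathway, 22 of the IL-6, JAK and STAT pathway, 37 of protein folding in the endoplasmic reticulum, and 117 of the proteasome and ribosome. A share of 1.76% amounts to less than 1 gene in each of these lists except the last.

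The lists were then compared by the share of RPMI8226-only peaks among all peaks nearest to their genes, beside 25.6% over all genes. The share was 37.6% for axon guidance genes (123 of 327 peaks), 36.5% for cadherins and protocadherins, 36.4% for the WNT pathway, 35.7% for ion channels and 34.9% for the TGF-beta and BMP pathway. At the other end were the IL-6, JAK and STAT pathway with 11.5% (9 of 78), the NF-kB pathway with 11.9% (15 of 126), AP-1 subunits with 12.3% (7 of 57), B cell genes with 16.3%, proteasome and ribosome genes with 16.7% (38 of 228) and plasma cell genes with 18.5%. Within the AP-1 list, FOS had 2 of 7 and JUN 2 of 14. These shares are counts, without a test of any list. They join promoter and distal peaks, and promoter peaks were less often RPMI8226-only. A promoter peak called in all 5 libraries was at 28 of 28 NF-kB and 115 of 117 proteasome and ribosome genes. It was at 29 of 52 axon guidance genes and 17 of 100 cadherins and protocadherins, but at 42 of 56 TGF-beta and BMP and 18 of 29 B cell genes. The part of promoter content in the order of the lists was not tested.

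**Figure D3:**
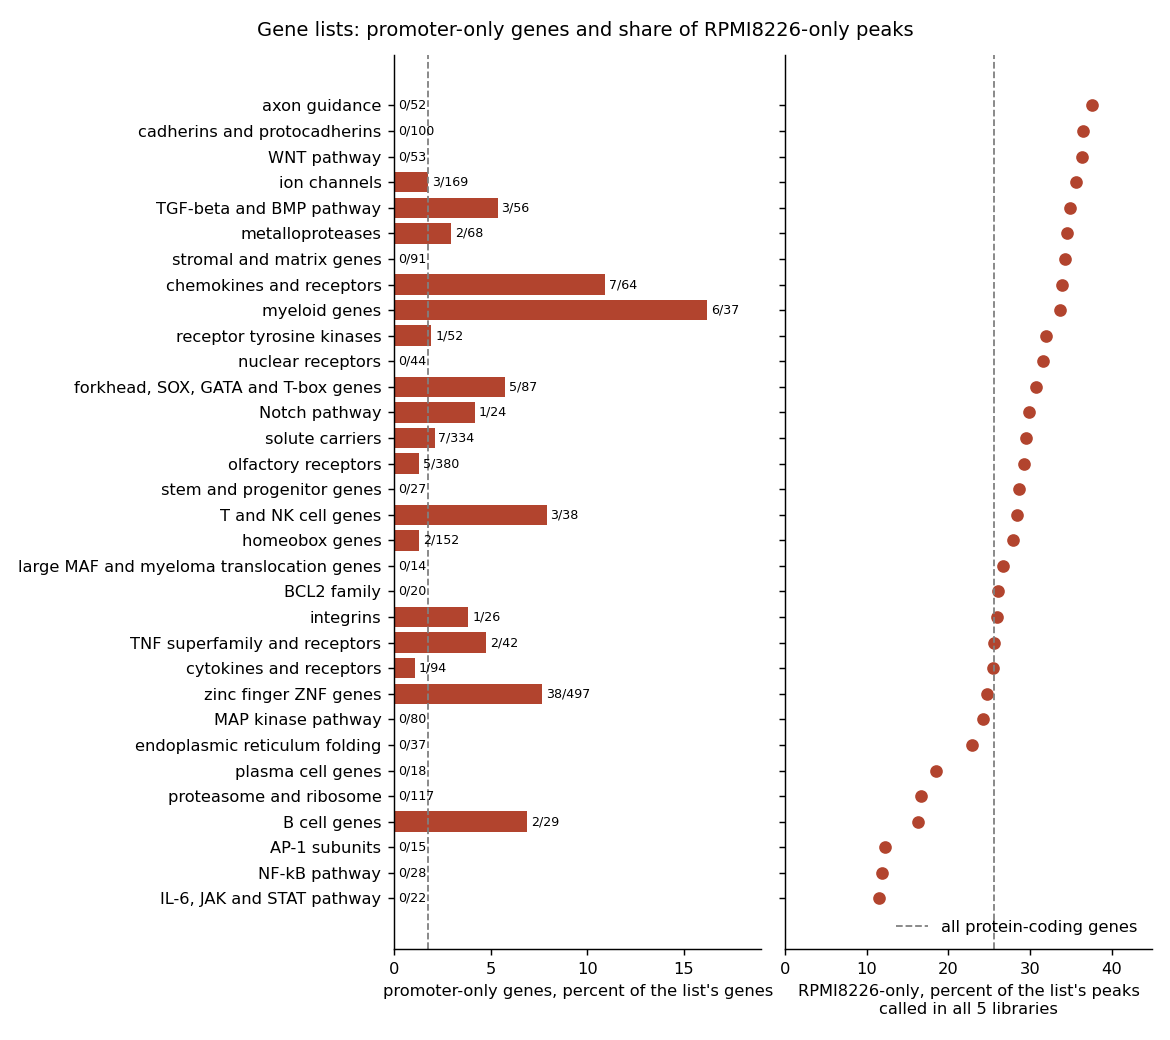
For each gene list shown, the share (%) of genes open at the promoter in RPMI8226 alone (promoter-only genes, with counts) and the share (%) of RPMI8226-only peaks among the peaks nearest to its genes, each beside the value over all protein-coding genes (1.76% and 25.6%). Myeloid genes stand at 16.2% in the first measure and axon guidance genes at 37.6% in the second.

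For distal peaks the promoter of the nearest gene was compared. Here a promoter counted as open in a line with any listed peak of that line, of support 3 or more. This is wider than the definition of the 324 genes above. The nearest gene's promoter was open in both lines for 69.1% of RPMI8226-only and 72.3% of shared distal peaks (odds ratio 0.859, 0.814 to 0.906). It had a listed peak in RPMI8226 alone for 5.03% and 3.20% (odds ratio 1.60, 1.42 to 1.81). It had one in MM.1S alone for 9.54% and 9.69%, which did not differ beyond counting error (odds ratio 0.983, 0.905 to 1.07). Most RPMI8226-only distal peaks thus had a nearest gene with an open promoter in both lines.

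Motifs were then sought in the central 200 bp of 9812 RPMI8226-only and 19115 shared distal peaks, on both strands, with Fisher's exact test, two-sided and Benjamini-Hochberg adjusted over 26 motifs, as the comparison. A match is a word in the sequence and not a bound site. Of the 26 motifs, 3 (11.5%) were more frequent in RPMI8226-only peaks and 12 (46.2%) less frequent.

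The AP-1 word TGACTCA was present in 19.6% of RPMI8226-only distal peaks (18.8 to 20.4%) and 13.6% of shared ones, an odds ratio of 1.55 (1.45 to 1.65, Fisher's exact test, adjusted p = 4.38e-38), and it was in 12.2% of all peaks called in all 5 libraries. The share was higher on 21 of 22 chromosomes. A single word was present in 1805 peaks (18.4%, against 12.2% of shared peaks), whereas 2 words were present in 1.10% and 1.29%. Promoter peaks showed the larger contrast, 17.2% against 5.84% (odds ratio 3.34, 2.98 to 3.75). These promoter classes also differed in GC content, with medians of 50.1% and 61.7%. The strata of width and GC content below covered distal peaks only, so the part of GC content at promoters was not tested. The odds ratio was 2.08 (1.83 to 2.35) in distal peaks narrower than 300 bp and 1.36 (1.26 to 1.47) in wider ones. Among distal peaks no narrower than the median width it was 1.12 (0.992 to 1.26, Fisher's exact test, p = 0.0711), so the call ended there. With strata of width and GC content it was 1.49 (1.40 to 1.59, Mantel-Haenszel), and the call was kept.

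The AP-1 words lay at the middle of the peaks. In the bins of 50 bp on either side of the midpoint there were 6.43 and 6.24 words per 100 RPMI8226-only distal peaks, against 4.30 and 4.29 per 100 shared ones. From 450 to 500 bp away the values were 0.703 to 0.897 and 0.732 to 0.858, and the classes overlapped.

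**Figure D4:**
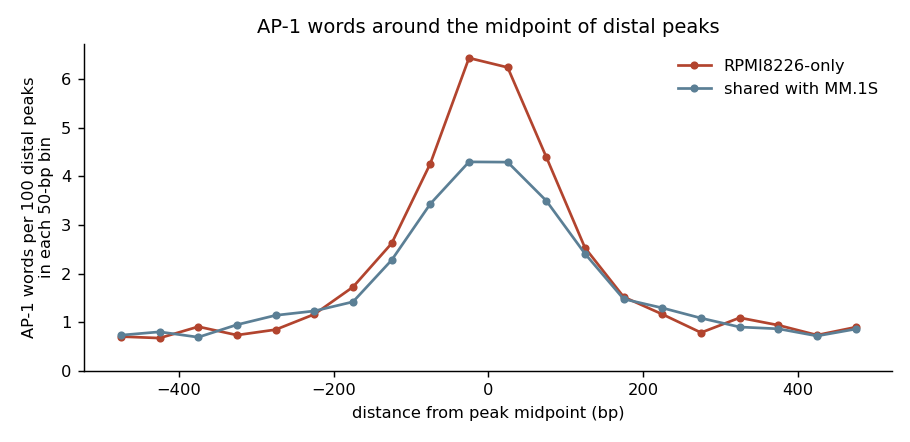
AP-1 words per 100 distal peaks in bins of 50 bp by distance (bp) from the peak midpoint, for RPMI8226-only and shared peaks. RPMI8226-only peaks reach 6.43 beside the midpoint and shared peaks 4.30, and both are under 1 at 450 to 500 bp.

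The FOX word TGTTTAC, bound by forkhead proteins, was present in 6.27% of RPMI8226-only and 4.00% of shared distal peaks (odds ratio 1.60, 1.44 to 1.79) and in 3.66% of all peaks. Without peaks that held a recurring word, its odds ratio was 1.30 (1.15 to 1.47). The PU.1 word GAGGAAGT, read by PU.1 and SPIB of the myeloid and B lineages, was present in 5.30% and 4.50% (odds ratio 1.19, 1.06 to 1.33, Fisher's exact test, adjusted p = 0.00700, with 3.91% of all peaks), but the call ended with the whole peak scanned (1.04), with strata of width and GC content (1.10) and with 1 peak of each class per 100 kb (1.07).

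The CTCF word AGNNGGCGC was the least frequent of the 12 relative to shared peaks, with 1.25% against 4.13% (odds ratio 0.295, 0.243 to 0.357) and 5.54% of all peaks, promoter peaks included, and was lower on 22 of 22 chromosomes. The word holds a CpG, and in promoter peaks its shares were 2.70% and 9.89%. With strata of width and GC content the odds ratio was 0.327 (0.269 to 0.396). CpG content was not a stratum, so its part was not tested. The ISRE word GAAANNGAA of IRF proteins was present in 9.58% and 12.9% (odds ratio 0.717, 0.663 to 0.777), and the EICE word GGAANNGAA of IRF4 with PU.1 or SPIB, whose letters overlap the ISRE, in 7.89% and 9.35% (0.830, 0.760 to 0.906). The NF-kB word GGGANTTTC was present in 1.27% and 1.72% (0.737, 0.599 to 0.907), the RUNX words TGTGGTTT and TGTGGTTA in 7.07% and 8.65% (0.804, 0.733 to 0.881), and the MEF2 words CTATTTTTA and CTATTTATA in 0.734% and 1.24% (0.589, 0.452 to 0.767). The shares in all peaks were 9.57% for ISRE, 7.63% for EICE, 1.38% for NF-kB, 6.12% for RUNX and 0.827% for MEF2. The other motifs that were less frequent were SP/KLF (GGGCGGGG, odds ratio 0.556), STAT3 (TTCCNGGAA, 0.599), the E-box CACGTG (0.718), EBF (TCCCNNGGG, 0.727), the words of GATA proteins (AGATAAG and TGATAAG, 0.818) and TEAD (GGAATGT and GGAATGC, 0.851), and the calls of STAT3, EBF, GATA and TEAD were each lost under 1 or more alternatives. The MARE words TGCTGAGTC and TGCTGACTC of large MAF proteins, which overlap the AP-1 word, were at 2.10% in both classes (odds ratio 0.998, 0.842 to 1.18). The other motifs without a call were the E-boxes CAGCTG and CAGGTG, OCT (ATGCAAAT), CEBP, ATF::CEBP (TGATGNAA), CRE (TGACGTCA), SOX (ACAATGG), ETS (CCGGAAGT), NRF1 (GCGCATGCG) and the nuclear receptor half-site (AGGTCANAG), with odds ratios from 0.449 for NRF1 to 1.12 for the half-site.

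**Figure D5:**
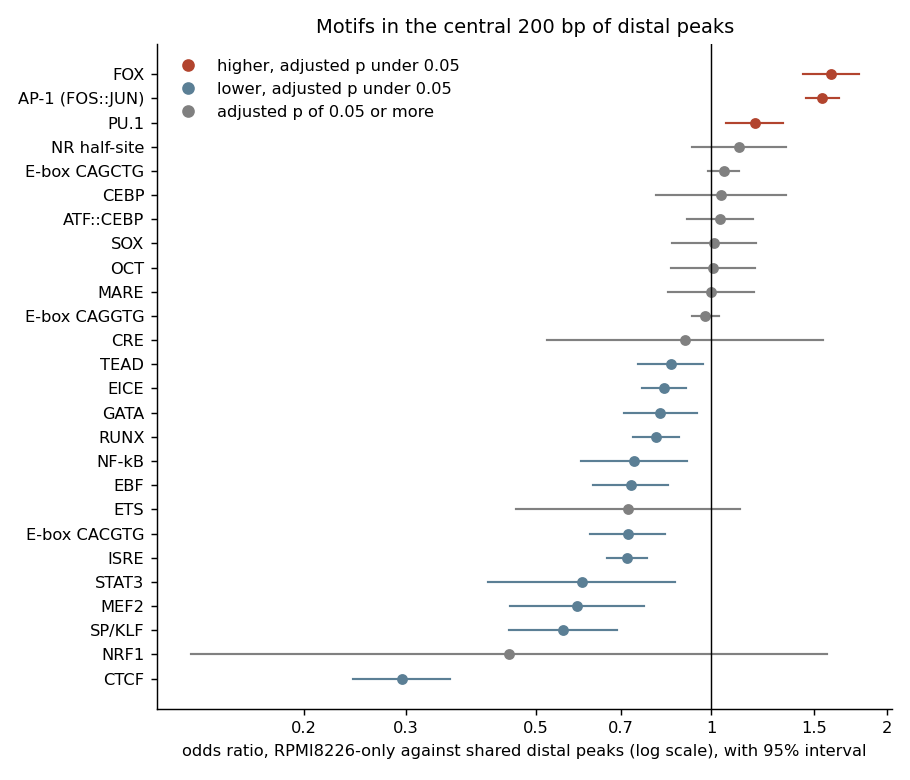
Odds ratio (log axis) of each of 26 motifs in RPMI8226-only against shared distal peaks, with 95% intervals as bars. FOX (1.60), AP-1 (1.55) and PU.1 (1.19) stand above 1 past the threshold, and CTCF is lowest at 0.295.

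All 2080 words of 6 bases were compared in the same way, without any choice of factor. More frequent in RPMI8226-only distal peaks were 490 (23.6%), and 503 (24.2%) were less frequent. The highest odds ratios were those of CGAATA (2.64, with 2.18% against 0.837% of peaks), GGCGTA (2.39) and CTACGC (2.30), and the lowest those of CGCGCG (0.205), CCGCGG (0.323) and CGCGGC (0.331). When peaks with a recurring word were left out, CGAATA fell to 1.19 (0.906 to 1.56) and GGCGTA to 0.887, and the highest was GTTACA (1.74, with 12.7% against 7.73%). CGCGCG then stood at 0.214 and was again the lowest.

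The 4 recurring words come from a single repeated sequence. Measured from word 3 in the genome, word 1 lay at -177 bp, word 2 at -67 bp and word 4 at 127 bp, at medians over neighbouring copies, and 1942 of 1947, 1066 of 1069 and 2890 of 2899 pairs were on the same strand. The genome held 2448, 2006, 4458 and 4164 copies of words 1 to 4. Their letters are those of the promoter end of LINE-1 elements, mobile elements present in many copies, as a matter of background, and no repeat annotation was used here. The words were chosen after the data were seen, for being carried mostly by RPMI8226-only peaks.

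A recurring word was present in 541 RPMI8226-only peaks (4.25%) and 163 shared peaks (0.441%), which the choice of words fixed in part and which is given without a test. The 541 lay on 22 chromosomes with 451 nearest genes, 49.5% were intergenic, and their median distance from a start site was 157906 bp. They were wider than other RPMI8226-only peaks, with medians of 638 and 368 bp. In peaks of lower support, which were not used to choose the words, the contrast was smaller. These peaks came from the same libraries and were split by the same MM.1S list. They are therefore not independent of the choice, and their values are a description. At a support of 3, 1.23% of RPMI8226-only and 0.252% of shared peaks held one (odds ratio 4.93, 2.64 to 9.22). At a support of 4 the shares were 1.48% and 0.292% (5.13, 3.20 to 8.21). Of 70840 MM.1S peaks on these chromosomes, 290 (0.409%) held one.

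Repeated sequence in general was more frequent as well. Peaks in which at least 50% of the central 16-base words occurred 20 times or more in the genome were 10.6% of RPMI8226-only distal peaks (10.0 to 11.3%) and 5.21% of shared ones (odds ratio 2.17, 1.98 to 2.37), higher on 21 of 22 chromosomes. Among promoter peaks they were 6.59% and 1.56% (odds ratio 4.46, 3.70 to 5.38). The authors removed reads that mapped to several places, and the part of read mapping in this difference was not tested.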

How the data were processed

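Omni-ATAC was performed in 14 libraries, grouped by cell line and culture from their labels. As the study's methods state, reads were aligned to hg38 by the authors with Bowtie2, those with several mapping positions were removed, 1 read per position was kept, and peaks were called with MACS3. A reference peak had to be present in at least 3 libraries, and the supplement states a minimum mapping quality for reads. Tool versions, the peak-calling threshold and the joining of peak boundaries are not given in the sources used here. The deposited lists give chromosome, start, end and a whole number, read as how many libraries carried the authors' call, with a minimum of 3 and no normalization (a support number, in a unit other than reads). Starts were read as counted from 0 and are printed counted from 1, since the files do not state this. The lists hold no depth, and the read totals per library in the study's supplement were not used as data, so precision is given as intervals over peaks, which cover counting error only. The planned fits for values of single libraries could not be made.

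Start sites came from GENCODE 44. Shares were compared by Fisher's exact test with Woolf and Wilson intervals of 95%, and motifs with Benjamini-Hochberg adjustment at 0.05. Mantel-Haenszel odds ratios used strata of width and GC content. Peaks on chromosomes X (458) and Y (78) were left out. Genes were named by count of RPMI8226-only peaks (15), by share among genes with at least 12 peaks (10), by width of the promoter peak, and from 33 gene lists. The peaks, lists and motifs were chosen with earlier results of these data known. Sequence stretches were trimmed to leave out annotated exons. Scripts were tested on simulated data and run with Python 3.11.15, numpy 2.4.6, pandas 2.3.3, scipy 1.17.1, pysam 0.24.0, matplotlib 3.10.9 and samtools 1.23.1. Some items are not reported here.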

Additional observations from a re-analysis of the deposited data

How the results depend on the processing

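The odds ratios of promoter peaks (0.192 to 0.400 over 11 alternatives), of peaks beyond 50 kb (1.52 to 3.56 over 9) and of CpG-rich peaks (0.0438 to 0.329 over 7) kept their direction and their call. That of the AP-1 word did so in 10 of 11 and was 1.12 in peaks no narrower than the median width, where the call ended. The medians moved in size and not in direction. The difference in width (-109 bp) was -136 bp with 50% reciprocal overlap of shared peaks, -161 bp against shared peaks whose MM.1S peak was called in all 9 libraries, -100 bp with 1 peak of each class per 100 kb, and -34.5 bp in distal peaks. The difference in distance (24876 bp) was 27506 bp at 1000 bp or more from any MM.1S peak, 29526 bp against MM.1S peaks called in all 9, 17710.5 bp with 1 peak per 100 kb, 35513 bp in wide peaks, 13969 bp in distal peaks and 6545 bp with start sites of all transcripts. The difference in GC content (-5.64 percentage points) was -8.32 against MM.1S peaks called in all 9, -4.23 with 1 peak per 100 kb, -7.64 in wide peaks and -1.14 in distal peaks. The number of genes open at the promoter in RPMI8226 alone was 176 with no MM.1S peak allowed within 10000 bp of a start site, and 271 to 357 otherwise. The cause of these changes was not tested. The number of motifs was 2 to 4 higher and 9 to 16 lower. Leaving out peaks with many copies or with a recurring word was chosen after seeing the data.

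No paired analysis was possible because the files give no value for a single library. For the same reason no library was left out in turn. The limit that depth sets on each absent peak was not computed, since the lists hold no reads.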
